A study of Homo sapiens with 16 samples.

Results

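Copper reaches human cells through dedicated membrane transporters, and 10 genes of copper handling and metal binding were followed here in A549, an established line of lung adenocarcinoma cells, and in A549/cDDP, a derived line that resists cisplatin. They were chosen by name, not by a rule on measured values, but with earlier results of these data known. They are the copper transporter genes SLC31A1 and SLC31A2 and the copper export ATPase genes ATP7A and ATP7B. The others are the copper chaperone genes ATOX1 and CCS and the metallothionein genes MT2A, MT1X, MT1F and MT1E. All 10 were among the 60448 gene identifiers of the deposited expression table.

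The study compared both lines with and without cisplatin, and it asked in the resistant line what follows when the long noncoding RNA SCAT7 is knocked down. The 16 libraries fall into 8 groups of 2: A549 in drug solvent, A549 in cisplatin, A549/cDDP in solvent, A549/cDDP in cisplatin, and A549/cDDP transfected with either a control gapmer or a SCAT7 gapmer, each in solvent or in cisplatin. A gapmer is an antisense oligonucleotide with locked bases by which RNase H cuts the matching RNA. Cisplatin was given at a labelled 15 mM for 24 h, a unit printed as the labels have it, and gapmers at 12 pmol with collection 48 h after transfection. All A549/cDDP cells, the controls included, came from culture kept in the same labelled concentration of cisplatin, so their solvent groups are cells with a standing history of drug. The labels call the cells an unsynchronized, heterogeneous population, name 1 resistant line, and leave unsaid if the 2 libraries of a group came from separate cultures. The p-values therefore cover the spread of libraries, which may be technical.

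SLC31A1 (CTR1) carries reduced copper across the plasma membrane, and SLC31A2 (CTR2) acts largely on internal vesicles. ATOX1 hands copper to ATP7A and ATP7B, which load it into the secretory pathway and pump out the excess, while CCS delivers it to the superoxide dismutase SOD1. Metallothioneins are small cysteine-rich proteins that bind zinc, copper and cadmium, and their genes are switched on by the metal-sensing factor MTF1 through metal response elements near their starts. Several of these proteins are also known to bind or carry platinum, and they are for that reason studied in cisplatin resistance.

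FPKM values divide fragments by the gene's length and the library's total. The lengths used were not given in the sources used here, so levels can be compared between genes only roughly. The depth estimated from the steps of low values ran from 31352667 to 43141017 fragments, and libraries of the SCAT7 gapmer were among the shallowest. Replicates correlated across genes at 0.991 to 0.996. The knockdown was seen in ELF3-AS1, the gene for which the RefSeq table gives SCAT7 as another name. In solvent it stood at 2.56 and 3.57 FPKM with the control gapmer and at 0.594 and 0.837 with the SCAT7 gapmer. In cisplatin the values were 3.73 and 3.23 against 1.69 and 2.18, so the target was less depleted there. Its log2 change was -1.54 in solvent and -0.71 in cisplatin. The keratin genes KRT8, KRT18 and KRT19, markers of epithelial cells, stood at 90.5 FPKM or more in every library, while EPCAM, another such marker, was at 0.584 to 3.81. The lung epithelial marker NKX2-1 was listed at 0 in 4 libraries and the surfactant genes SFTPB, SFTPC and SFTPA1 did not exceed 0.194 FPKM, while NAPSA, of the same list, was at 0.792 to 3.19 in every library. Markers of leukocytes and endothelium stayed at or under 0.958 FPKM, and of the fibroblast markers COL1A1 reached 52.7 while COL1A2 and DCN did not exceed 0.377.

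The metallothionein promoters show the letters that link these genes to metals. RefSeq starts (assembly GRCh38.p14) were at hand for 7 of the 10 members: SLC31A1, ATP7A, ATP7B with 3 starts, ATOX1, CCS, MT2A and MT1X. The 250 bases before each start were searched on both strands for the metal response element core, spelled TGCACNC or TGCGCNC, with overlapping matches joined into 1 stretch. Of all 35116 starts in the table, 24.8% held at least 1 stretch, 0.202% at least 4 and 0.0228% at least 7. MT2A held 7 stretches and MT1X held 4. ATP7B held 2 before 1 of its starts and none before the others, CCS and ATOX1 held 1 each, and none was found before SLC31A1 or ATP7A. A match is a description of these letters, not evidence of a site, and no match says only that these letters are not in this window.

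The MT1X sequence is shown because all 4 of its stretches lie in the 204 bases before the first base of its GENCODE model, on the plus strand at chr16:56682220-56682423, with the matches in capitals.

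MT1X: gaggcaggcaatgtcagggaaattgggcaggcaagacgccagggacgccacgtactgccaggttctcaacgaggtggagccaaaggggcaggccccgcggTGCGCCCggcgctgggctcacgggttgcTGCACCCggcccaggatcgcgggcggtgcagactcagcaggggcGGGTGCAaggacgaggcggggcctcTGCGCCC

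For MT2A each stretch is shown in capitals with up to 6 bases on either side, 5′ to 3′ on the plus strand of chromosome 16, named by the distance of its first capital from the RefSeq start. In 2 of the 7 the core lies on the opposite strand. These stretches fall inside the GENCODE 29 model of MT2A, which starts further upstream.

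MT2A at -246: ccgcTGCACCCagcccc
MT2A at -168: cggcccGTGTGCAgagccg
MT2A at -153: gccgggTGCGCCCggccca
MT2A at -139: gcccagTGCGCGCggccgg
MT2A at -88: cggggcGTGTGCAggcagc
MT2A at -54: ggctttTGCACTCgtcccg
MT2A at -8: ccgcgcTGCACTCc

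CCS and ATOX1 carried the same 8 letters, a palindromic run that matches on both strands at once. They are shown to set the single run of these chaperone genes beside the many of MT2A.

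CCS at -46: ccttgcGTGCGCACgcacta
ATOX1 at -20: cctctaGTGCGCACtctcgg

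Levels of the 10 genes differed widely. MT2A was by far the most abundant, with a mean of 427 FPKM over the 16 libraries, above 98.7% of the genes tested. The chaperone genes ATOX1 and CCS averaged 43.4 and 30.6 FPKM and SLC31A1 averaged 24.8. SLC31A2, ATP7A and ATP7B averaged 4.69, 3.34 and 2.22 FPKM. The remaining metallothioneins were weak, MT1F at 1.52 and MT1X at 1.44, with 45 to 174 fragments behind each of their values, and MT1E was listed at 0 in 12 libraries. MT1E, with a mean of 0.0763 FPKM, was the only member under the minimum mean of 0.5 FPKM for testing, so 9 members were tested among 17198 genes. Because each library pools the RNA of many cells, fewer cells with a transcript and less of it per cell cannot be told apart. Each value is also a share of its library, so it can move when other genes change.

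**Figure D1:**
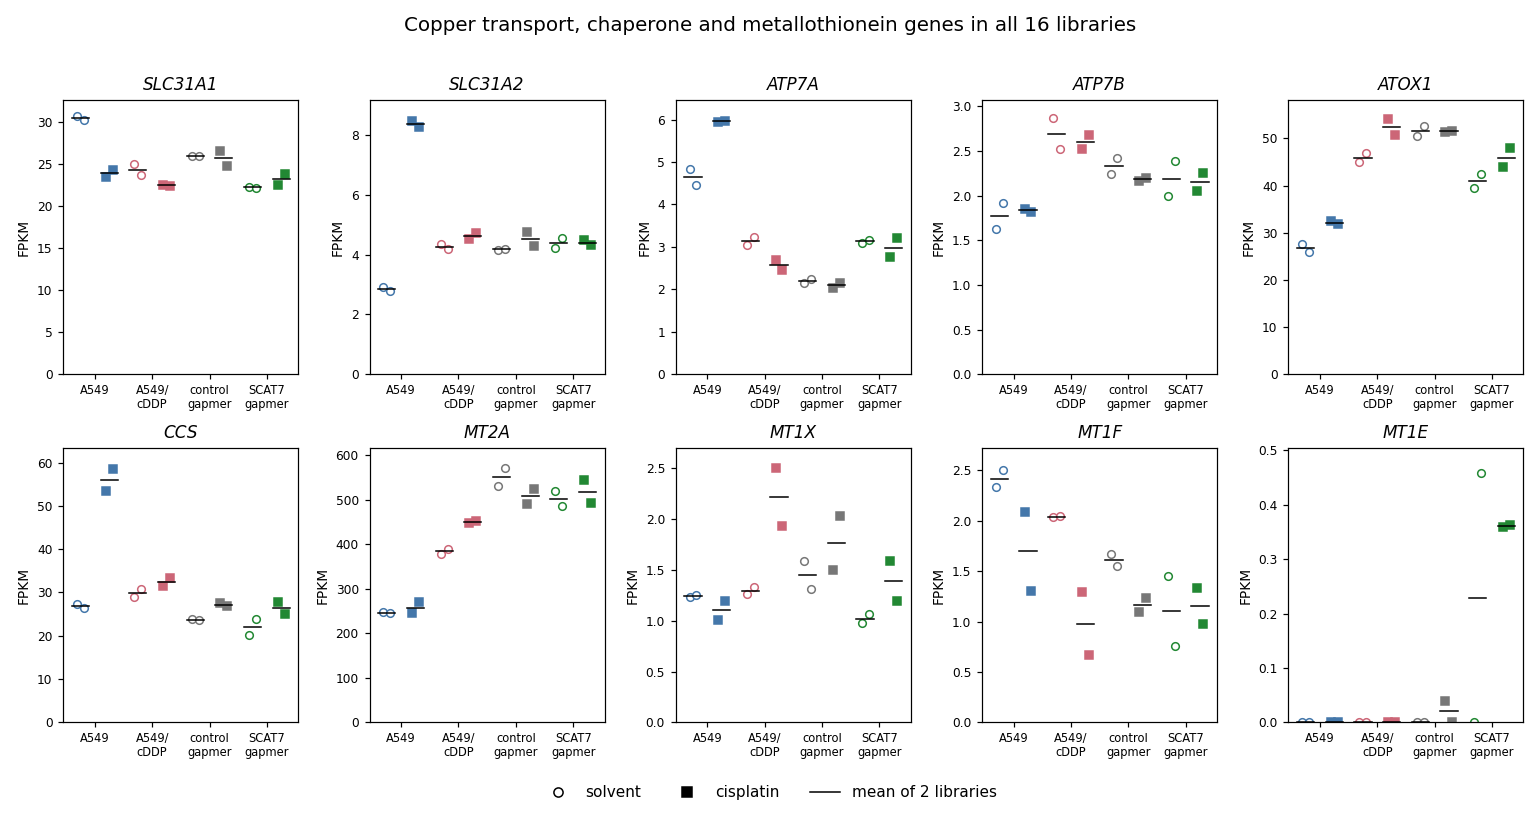
FPKM of each of the 10 genes in all 16 libraries, 1 panel per gene with its own axis from 0, open circles for solvent, filled squares for cisplatin and a line at the mean of the 2 libraries of a group. SLC31A2 and CCS stand apart in A549 with cisplatin, at 8.25 to 8.45 and 53.5 to 58.5 FPKM, and MT2A and ATOX1 are lower in all 4 A549 libraries than in any A549/cDDP library.

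In parental A549, cisplatin raised the transporter gene SLC31A2 and the chaperone gene CCS at least 2-fold on the scale of log2(FPKM + 0.5), raised ATP7A and ATOX1 by a smaller step, and lowered SLC31A1. The metallothionein genes did not pass the test. Of the 9 members tested, 4 were higher and 1 was lower by limma at an adjusted p under 0.05, in a comparison where 60.4% of all genes passed, 33.3% higher and 27.1% lower, so the members' count is near the background. The median log2 change was 0.06 over the members and 0.06 over all genes.

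SLC31A2, which stood at 2.91 and 2.79 FPKM in A549 in solvent, was at 8.45 and 8.25 in cisplatin. Both cisplatin libraries lay far above both solvent libraries and above every other library of the series. The log2 change was 1.40 (SE 0.072), with a limma adjusted p of 4.52e-09. SLC31A2 (ENSG00000136867, chromosome 9, 113150942 to 113164137 on hg38) shares 1579 bp, 63.1% of its exon bases, with FKBP15 on the opposite strand, and the strand setting of the counting was not given in the sources used here. FKBP15 itself rose by 0.15 in the same comparison (limma adjusted p = 0.0115), a smaller step than that of SLC31A2, and its part in the SLC31A2 value was not tested.

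CCS (ENSG00000173992, chromosome 11, 66592821 to 66606019) stood at 27.3 and 26.5 FPKM in solvent and at 53.5 and 58.5 in cisplatin. No other group came above 33.3 FPKM. Its log2 change was 1.04 (SE 0.074) with a limma adjusted p of 1e-07. SOD1, the enzyme that CCS loads with copper, measured 190 and 186 FPKM in solvent and 201 and 207 in cisplatin.

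SLC31A1 (ENSG00000136868, chromosome 9, 113221562 to 113264492) went the other way, from 30.7 and 30.2 FPKM in solvent to 23.5 and 24.3 in cisplatin. The 2 solvent libraries were the highest of all 16. It fell by 0.34 on the log2 scale (SE 0.045, limma adjusted p = 2.49e-05). SLC31A1 and SLC31A2 thus moved in opposite directions in the same libraries.

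ATP7A (ENSG00000165240, chromosome X, 77910656 to 78050395), the copper pump of most tissues outside the liver, was at 4.84 and 4.45 FPKM in solvent and at 5.95 and 5.97 in cisplatin, a log2 change of 0.33 (SE 0.088, limma adjusted p = 0.00618). That call ended under quantile normalization, where the change was 0.20 (adjusted p = 0.114), and without A549 solvent replicate 2 (0.27, adjusted p = 0.057). ATP7B (ENSG00000123191, chromosome 13, 51930436 to 52012125), the liver-type pump, measured 1.63 and 1.92 FPKM in solvent and 1.86 and 1.82 in cisplatin, and its groups overlapped. ATOX1 (ENSG00000177556, chromosome 5, 151742316 to 151772532) rose from 27.7 and 25.9 FPKM to 32.5 and 31.8, with a log2 change of 0.26 (SE 0.054, limma adjusted p = 0.00118).

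The metallothionein genes did not pass in A549. MT2A (ENSG00000125148, chromosome 16, 56608199 to 56609497) stood at 247 and 246 FPKM in solvent and at 246 and 270 in cisplatin, with a 95% interval of the log2 change from -0.07 to 0.19. MT1X (ENSG00000187193, chromosome 16, 56682424 to 56684196) measured 1.24 and 1.25 FPKM in solvent and 1.01 and 1.20 in cisplatin. MT1F (ENSG00000198417, chromosome 16, 56657694 to 56660698) measured 2.33 and 2.50 in solvent and 2.09 and 1.30 in cisplatin with an interval of the log2 change from -0.96 to 0.09. MT1E (ENSG00000169715, chromosome 16, 56625475 to 56627112) was listed at 0 in all 4 libraries.

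Other copper and zinc genes of A549 passed in both directions with cisplatin. The counts per list below stand beside the 33.3% of all genes that were higher and the 27.1% that were lower, and no list is read as apart from them. The zinc exporter gene SLC30A1, a classic target of MTF1, rose by 1.38 on the log2 scale, from 15.3 and 15.6 FPKM to 41.5 and 40.5, among 9 tested genes of metal-responsive transcription and zinc export of which 3 rose and 3 fell. In that list MTF1 rose by 0.30, while SLC30A3 fell by 0.81 and MTF2 by 0.30. Of 11 zinc import genes 2 rose, SLC39A13 by 0.39 and SLC39A4 by 0.15, and 5 fell, with SLC39A11 down by 1.94 and SLC39A7 by 0.47. Of 10 genes for trafficking and regulation of the copper ATPases 3 rose and 5 fell: AP1S1 and DCTN4 rose by 0.59 and 0.47, and COMMD1, which binds ATP7B and takes part in its turnover, fell by 1.33, as CCDC93 did by 0.28.

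Of 10 copper enzyme genes 3 rose and 4 fell. The lysyl oxidase genes split, LOXL4 rising by 1.45 and LOXL2 falling by 1.50 from 191 and 194 FPKM to 68.6 and 66.9, and the amine oxidase gene AOC3 rose by 0.56 while PAM, of peptide amidation, fell by 0.82. Of 12 genes for copper delivery to mitochondria 3 rose and 2 fell, with CHCHD7 and COX19 up by 0.51 and 0.51 and CMC2 and SCO1 down by 0.63 and 0.21. Of 4 metalloreductase genes STEAP2 rose by 0.50 and 3 fell, among them STEAP1 by 0.78 and STEAP3 by 0.21. Of 4 other platinum carriers the organic cation transporter gene SLC22A3 fell by 1.27 and none rose. None of the 3 tested genes among the other metallothioneins passed. The calls of MTF1, SLC39A4 and STEAP3 ended under at least 1 alternative.

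In A549/cDDP, the same drug exposure changed few genes, and the members that passed were metallothioneins. MT2A and MT1X were higher in cisplatin, 2 of 9 members, where 8.1% of all genes passed and 3.55% were higher. The median log2 change was 0.10 over the members and 0.00 over all genes. MT2A stood at 379 and 389 FPKM in solvent and at 449 and 452 in cisplatin, a log2 change of 0.23 (SE 0.060, limma adjusted p = 0.0351). MT1X stood at 1.27 and 1.33 FPKM in solvent and at 2.50 and 1.94 in cisplatin, a log2 change of 0.59 (SE 0.16, limma adjusted p = 0.0382). Both calls ended when any 1 of the 4 libraries was left out, with adjusted p from 0.101 to 0.179 for MT2A and from 0.0581 to 0.21 for MT1X, and both ended without the filter on low values (0.103 and 0.103). With the replicate number as a block, MT1X came to a limma adjusted p of 0.0526. MT1X shares 18.1% of its exon bases with AC026461.1 on the same strand, and 18.3% of its 50-base words also occur in another gene. The part of shared reads in its values was not tested.

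The other members of A549/cDDP did not pass. Of all 9 tested, 6 had an unadjusted p under 0.05 by limma, MT2A and MT1X included. MT1F was at 2.03 and 2.05 FPKM in solvent and at 1.29 and 0.666 in cisplatin, a log2 change of -0.81 with an adjusted p of 0.061 by limma (0.0351 with the replicate block). ATOX1 was at 44.9 and 46.9 in solvent and 54.1 and 50.8 in cisplatin, a change of 0.19 with a limma adjusted p of 0.0526. ATP7A stood at 3.04 and 3.24 in solvent and at 2.69 and 2.45 in cisplatin, a change of -0.25 with a limma adjusted p of 0.12. The direction of MT1F was opposite to that of MT2A and MT1X.

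SLC31A2 measured 4.36 and 4.17 FPKM in solvent and 4.53 and 4.71 in cisplatin in A549/cDDP, and CCS 29.01 and 30.8 against 31.6 and 33.3. Their 95% intervals ran from -0.05 to 0.26 and from -0.05 to 0.28, both far under the changes in A549. SLC31A1 measured 24.9 and 23.7 against 22.5 and 22.4, and ATP7B measured 2.87 and 2.52 against 2.53 and 2.67. Among the surrounding lists, SLC30A1 and SLC30A7 rose by 0.23 and 0.18, SLC39A13 rose by 0.35 and SLC39A11 fell by 0.39, and of the copper enzymes LOXL2 and the ferroxidase gene CP fell by 0.32 and 0.52. Of these, only the LOXL2 call held under every alternative run.

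**Figure D2:**
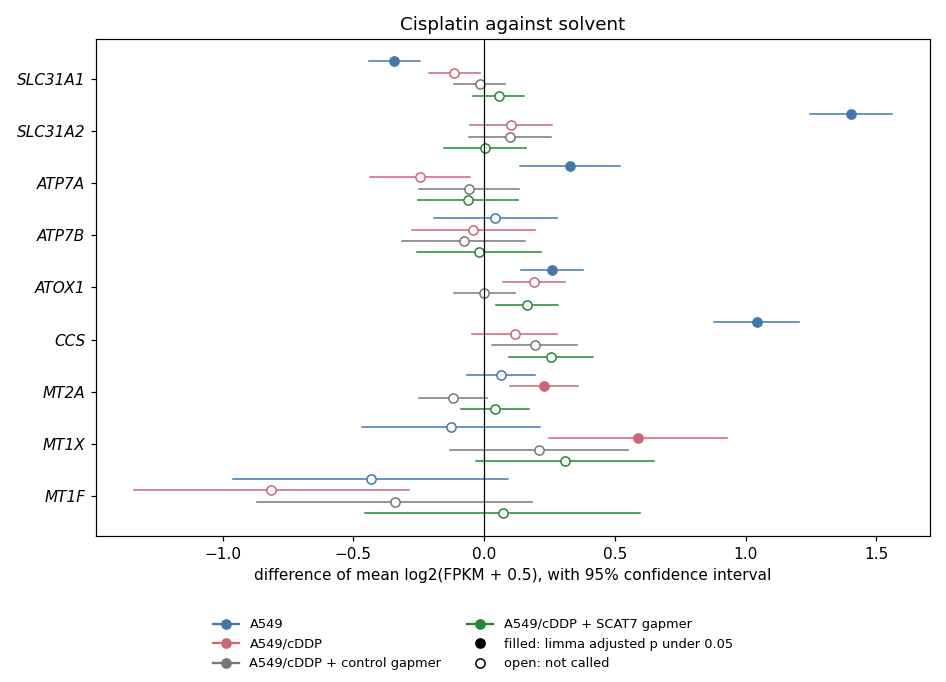
Difference between cisplatin and solvent in mean log2(FPKM + 0.5) for the 9 members tested, with 95% confidence intervals, in A549, A549/cDDP and A549/cDDP with either gapmer; filled points passed at an adjusted p under 0.05. SLC31A2 and CCS lie at 1.40 and 1.04 in A549 and near 0 in A549/cDDP, where MT2A and MT1X are the filled points.

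The difference between the cisplatin effects of both lines was tested directly. It passed for 5 of 9 members, 2 higher and 3 lower in A549/cDDP than in A549, against 47% of all genes, 21.5% higher and 25.6% lower, so the share is again near the background. The SLC31A2 effect was smaller in A549/cDDP by 1.30 on the log2 scale (SE 0.10, limma adjusted p = 5.67e-07), and the FKBP15 effect differed by 0.01 (adjusted p = 0.885). The CCS effect was smaller by 0.93 (SE 0.11, limma adjusted p = 1.44e-05). The ATP7A effect was lower by 0.57 (adjusted p = 0.00229), with a rise in A549 and the uncalled value of -0.25 in A549/cDDP.

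For SLC31A1 the difference was 0.23 (SE 0.063, limma adjusted p = 0.00982), with a called change of -0.34 in A549 and the uncalled value of -0.11 in A549/cDDP. For MT1X it was 0.72 (SE 0.22, limma adjusted p = 0.0182), a call that ended without A549 cisplatin replicate 1 (0.0653), A549/cDDP solvent replicate 1 (0.0508) or A549/cDDP cisplatin replicate 1 (0.0791). The MT2A effects differed by 0.17 (limma adjusted p = 0.129), which passed only with median ratio scaling (0.25, adjusted p = 0.0271). The median difference was -0.08 over the members and -0.06 over all genes.

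In solvent, A549/cDDP differed from A549 in 6 of 9 members. MT2A, ATOX1, SLC31A2 and ATP7B were higher and SLC31A1 and ATP7A were lower, against 70.2% of all genes, 42.7% higher and 27.5% lower. The median log2 difference was 0.15 over the members and 0.15 over all genes, and median ratio scaling moved the latter to -0.01. Counts near these shares are no result about the members, and their values are given as levels of each gene.

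MT2A was higher in A549/cDDP, at 379 and 389 FPKM against 247 and 246, a log2 difference of 0.64 (SE 0.060, limma adjusted p = 9.25e-07). The chaperone gene ATOX1 had the largest difference of the members, 44.9 and 46.9 FPKM against 27.7 and 25.9, or 0.77 on the log2 scale (SE 0.054, limma adjusted p = 6.97e-08). SLC31A1 was lower by 0.32 on that scale (limma adjusted p = 3.9e-05) and ATP7A by 0.50 (adjusted p = 0.000261). In these libraries the resistant line thus carried more MT2A and ATOX1 RNA and less SLC31A1 and ATP7A RNA. ATP7A shares 2.6% of its exon bases with other genes, among them 97 bp with PGK1 on the same strand. PGK1 averaged 170 FPKM in A549/cDDP and 442 in A549 in solvent. It was lower by 1.37 in solvent (limma adjusted p = 4.41e-11) and by 1.32 in cisplatin. The part of PGK1 in the ATP7A differences was not tested.

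ATP7B was the export gene that was higher, by 0.49 (limma adjusted p = 0.00137), but with quantile normalization the difference was 0.14 (adjusted p = 0.352). SLC31A2 was higher by 0.51 (limma adjusted p = 4.17e-05), and by 0.21 with quantile normalization. FKBP15, which overlaps it, was higher by 0.51 (adjusted p = 4.59e-07), and its part in the SLC31A2 difference was not tested. SLC31A1 was lower by 0.50 with median ratio scaling. CCS (0.15, limma adjusted p = 0.094), MT1X and MT1F did not pass, and the CCS value turned to -0.04 with median ratio scaling.

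In cisplatin the lines differed in 7 of 9 members, 4 higher and 3 lower in A549/cDDP, where 66.5% of all genes passed, 37% higher and 29.5% lower. MT2A, ATOX1 and ATP7B were higher by 0.81, 0.70 and 0.41 on the log2 scale, and MT1X by 0.76 (limma adjusted p = 0.000933). ATP7A was lower by 1.07 (SE 0.088, limma adjusted p = 3.25e-07), SLC31A2 by 0.79 and CCS by 0.78. SLC31A1 (-0.09, adjusted p = 0.102) and MT1F (-0.58, limma adjusted p = 0.0505) did not pass, and both passed with median ratio scaling (0.00446 and 0.0258). The ATP7B call ended with quantile normalization (0.24, adjusted p = 0.114). SLC31A2 was therefore the member with opposite called differences in solvent and in cisplatin.

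**Figure D3:**
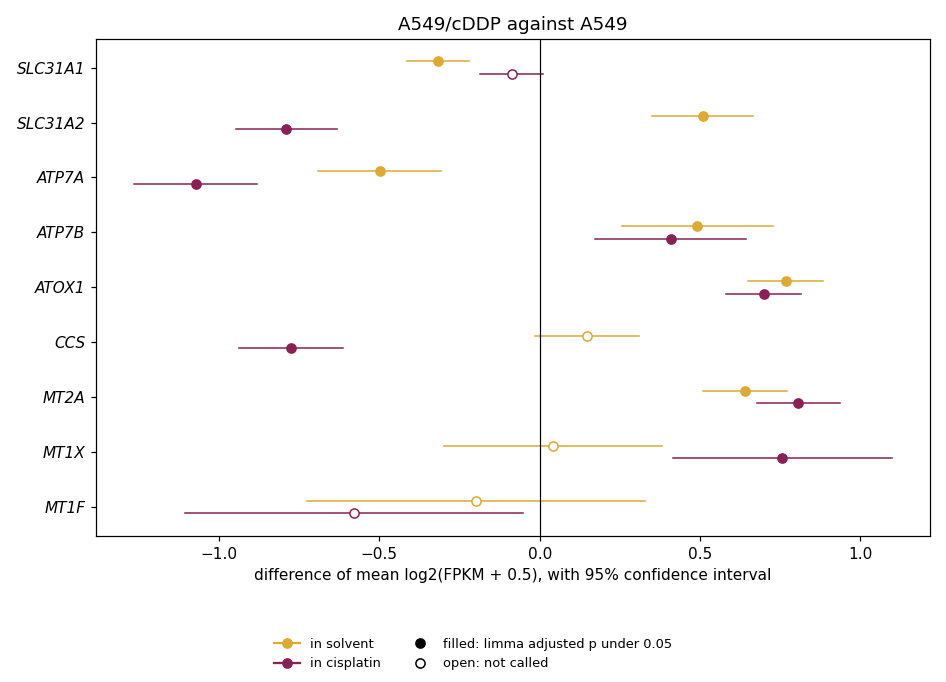
Difference between A549/cDDP and A549 in mean log2(FPKM + 0.5) for the 9 members tested, with 95% confidence intervals, in solvent and in cisplatin; filled points passed at an adjusted p under 0.05. MT2A and ATOX1 are above 0 in both conditions, at 0.64 and 0.81 and at 0.77 and 0.70, while SLC31A2 changes side, from 0.51 to -0.79.

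The clearest difference between the lines in the wider family was in MT1A, a metallothionein gene of the same chromosome 16 cluster (56638666 to 56640087). It stood at 9.12 and 8.58 FPKM in A549 in solvent, with 132 and 120 fragments behind the values, and at 8.83 and 12.0 in cisplatin. In A549/cDDP in solvent it stood at 0.128 and 0.0745 FPKM, which is 2 and 1 fragments, and in no other A549/cDDP library was it above 0.0755. By limma it was lower in A549/cDDP in solvent (adjusted p = 2.72e-10), and no fold is given because its fitted size depends on the pseudocount. In A549, MT1A thus had the second highest FPKM of the metallothioneins measured, and in A549/cDDP it was near 0. That rank depends on gene length. MT1F had 161 and 166 fragments in A549 in solvent, more than MT1A. The exon lengths are 1889 bp for MT1F and 396 bp for MT1A. The pseudogene MT1DP was also lower, on 12 or fewer fragments per library, and that call ended under some alternatives.

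**Figure D4:**
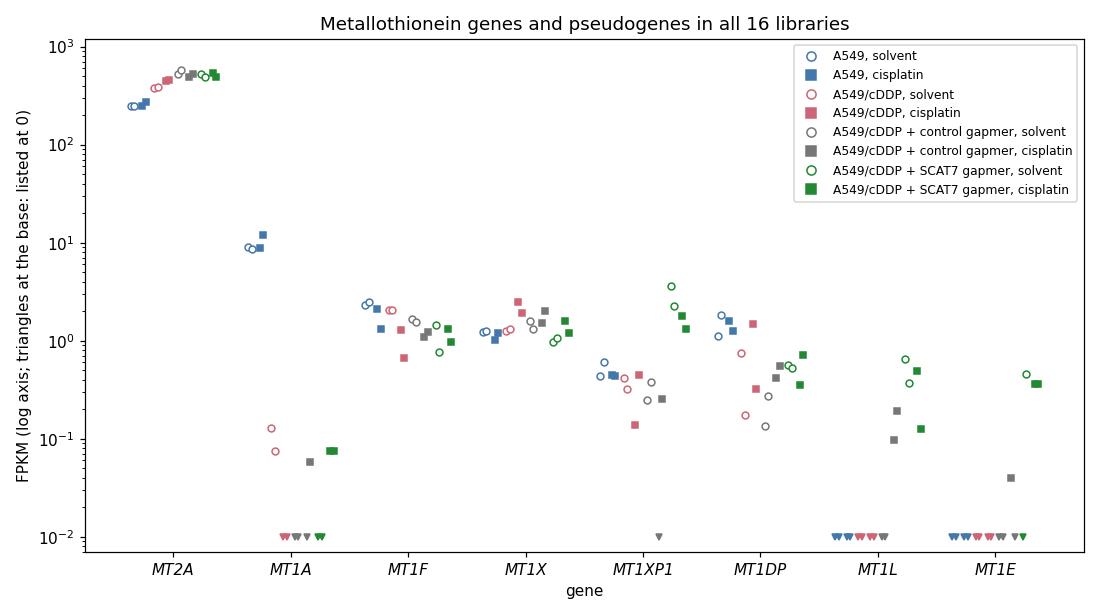
FPKM of 5 metallothionein genes and 3 pseudogenes (MT1XP1, MT1DP and MT1L) in all 16 libraries on a log axis, coloured by group, with open circles for solvent, squares for cisplatin and triangles at the base for values listed at 0. MT2A lies between 246 and 572 FPKM in every library, MT1A drops from 8.58 or more in A549 to 0.128 or less in A549/cDDP, and MT1E and MT1L leave 0 mainly with the SCAT7 gapmer.

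Genes of the other lists passed between the lines in solvent as follows, beside 42.7% of all genes higher and 27.5% lower, and no list is read as apart from these shares. Of 10 copper enzyme genes 7 were higher and none lower, with a median log2 difference of 1.45 against 0.15 over all genes. The lysyl oxidase gene LOXL4 was higher by 2.73, from 0.598 and 0.615 FPKM to 6.87 and 6.78, and MOXD1 by 1.94. Of 12 genes for mitochondrial copper delivery 1 was higher, COX11 by 0.34, and 7 were lower, CMC2 by 0.96 and COX17 by 0.81. Of 10 genes for trafficking and regulation of the copper ATPases 3 were higher and 6 lower, with DCTN4 up by 0.54 and CCDC93 by 0.33, and COMMD1 down by 0.74 and ARF1 by 0.73.

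Of 4 metalloreductase genes 3 were higher, among them CYBRD1 by 0.97 and STEAP2 by 0.61. Of 11 zinc import genes 6 were higher and 4 lower: SLC39A13 and SLC39A8 were up by 0.96 and 0.47, and SLC39A4 and SLC39A14 down by 0.63 and 0.47. In metal-responsive transcription and zinc export 4 of 9 were higher and 3 lower, with SLC30A4 and SLC30A7 up by 0.55 and 0.41 and SLC30A3 and SLC30A1 down by 0.45 and 0.28. The platinum and organic cation carriers SLC47A1 and SLC22A3 were lower by 0.97 and 0.93, and TMEM205, linked to platinum resistance, was higher by 0.55. The calls of SLC30A3 and SLC30A4 ended under at least 1 alternative.

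Transfection with the control gapmer was itself followed by changes in the members. Against untransfected A549/cDDP in solvent, 4 of 9 passed, 2 higher and 2 lower, where 39.7% of all genes passed, 20.7% higher and 19% lower. MT2A went from 379 and 389 to 532 and 572 FPKM, a log2 change of 0.52 (SE 0.060, limma adjusted p = 2.71e-05), and ATOX1 from 44.9 and 46.9 to 50.5 and 52.6, a change of 0.16 (adjusted p = 0.0293) that no removal of a single library left below 0.05. ATP7A fell by 0.43 (limma adjusted p = 0.00213), to 2.15 and 2.26 FPKM, and CCS by 0.33 (adjusted p = 0.00403), to 23.9 and 23.6. The highest MT2A levels of the series were in transfected cells.

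In cisplatin, 4 of 9 members differed between control gapmer and no transfection, 2 higher and 2 lower, against 42.4% of all genes, 23% higher and 19.4% lower. SLC31A1 was at 26.6 and 24.8 FPKM against 22.5 and 22.4, a change of 0.19 (limma adjusted p = 0.00446), and MT2A at 491 and 525 against 449 and 452, a change of 0.17 (adjusted p = 0.035). CCS fell by 0.25 (limma adjusted p = 0.0168) and ATP7A by 0.24 (adjusted p = 0.0434). The ATP7A call ended without any 1 of the 4 libraries and with the replicate block (0.0535), and those of CCS and MT2A ended without 3 of the 4. The MT2A call also ended with median ratio scaling (0.0738), quantile normalization (0.0602) and no filter (0.0989). Without the filter those of ATP7A (0.0581) and CCS (0.0515) ended too. With only the libraries compared, ATP7A came to 0.138. SLC31A1 missed 0.05 without control gapmer cisplatin replicate 1 (0.0594). The median change over the members was -0.03 in both conditions, and over all genes it was -0.01 in solvent and 0.02 in cisplatin.

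With either gapmer, no member passed between cisplatin and solvent. With the control gapmer 0 of 9 passed by limma (1, CCS, at an unadjusted p under 0.05), where 2.53% of all genes passed. With the SCAT7 gapmer 0 of 9 passed (ATOX1 and CCS at an unadjusted p under 0.05), where 4.18% of all genes did. CCS was at 23.9 and 23.6 FPKM in solvent and 27.5 and 26.9 in cisplatin with the control gapmer, and at 20.2 and 23.9 against 27.7 and 25.0 with the SCAT7 gapmer (log2 change 0.26, limma adjusted p = 0.0722). Leaving out SCAT7 gapmer solvent replicate 2 or cisplatin replicate 2 brought the latter to 0.0282 and 0.0344. MT2A stood at 532 and 572 FPKM in solvent and at 491 and 525 in cisplatin with the control gapmer, and at 520 and 486 against 543 and 493 with the SCAT7 gapmer.

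The cisplatin effects with both gapmers differed for 0 of 9 members by limma (0 at an unadjusted p under 0.05), against 0.93% of all genes. The lowest adjusted p among the members was 0.377, for ATOX1, with a 95% interval of the difference from 0.00 to 0.33. The members' median change was -0.02 when the control gapmer was present and 0.06 for the SCAT7 gapmer, and the median difference was 0.07.

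The SCAT7 gapmer, set against the control gapmer, raised ATP7A and lowered SLC31A1 and ATOX1. In solvent 3 of 9 members passed, 1 higher and 2 lower, where 55.8% of all genes passed, 33.2% higher and 22.7% lower. The same 3 genes passed with the same signs in cisplatin, where 49.7% of all genes passed, 28.6% higher and 21.1% lower. The median log2 change over the members was -0.13 in solvent and -0.03 in cisplatin, and over all genes it was 0.06 and 0.04.

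ATP7A was at 3.10 and 3.16 FPKM with the SCAT7 gapmer and at 2.15 and 2.26 with the control gapmer in solvent, a log2 change of 0.43 (SE 0.088, limma adjusted p = 0.00129). The cisplatin libraries were at 2.77 and 3.20 against 2.04 and 2.15, a change of 0.42 (adjusted p = 0.0017). The libraries did not overlap in either condition, and untransfected A549/cDDP in solvent stood at 3.04 and 3.24. With quantile normalization the changes were 0.19 and 0.26 and neither passed (0.137 and 0.0513).

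ATOX1 stood at 39.5 and 42.4 FPKM with the SCAT7 gapmer and at 50.5 and 52.6 with the control gapmer in solvent, and fell by 0.33 (SE 0.054, limma adjusted p = 0.000237). The cisplatin libraries stood at 43.9 and 48.0 against 51.5 and 51.6, and fell by 0.17 (adjusted p = 0.0233). SLC31A1 stood at 22.3 and 22.2 against 26.0 and 25.9 in solvent, and fell by 0.22 (SE 0.045, limma adjusted p = 0.00121). With cisplatin the values were 22.5 and 23.8 against 26.6 and 24.8, and fell by 0.15 (adjusted p = 0.0167). Both cisplatin calls ended when only the libraries compared were fitted (0.0824 for ATOX1, 0.131 for SLC31A1). Both also ended without control gapmer cisplatin replicate 1 (0.0805 and 0.168) or SCAT7 gapmer cisplatin replicate 1 (0.195 and 0.119), and ATOX1 without control gapmer cisplatin replicate 2 (0.0857).

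Among the metallothioneins, MT1X measured 0.977 and 1.06 FPKM with the SCAT7 gapmer in solvent against 1.59 and 1.31 (log2 change -0.36, limma adjusted p = 0.0717), and MT2A 520 and 486 against 532 and 572 (-0.13, adjusted p = 0.0759). Both passed with median ratio scaling (0.0416 and 0.00854). MT1F was at 1.45 and 0.759 against 1.67 and 1.55. MT1E was listed at 0 in both control gapmer libraries in solvent and at 0 and 0.458 FPKM with the SCAT7 gapmer. In cisplatin it was at 0.0400 and 0 with the control gapmer and at 0.360 and 0.363 with the SCAT7 gapmer, so 3 of the 4 SCAT7 gapmer libraries hold 13 to 16 fragments of MT1E and no other library holds more than 2.

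**Figure D5:**
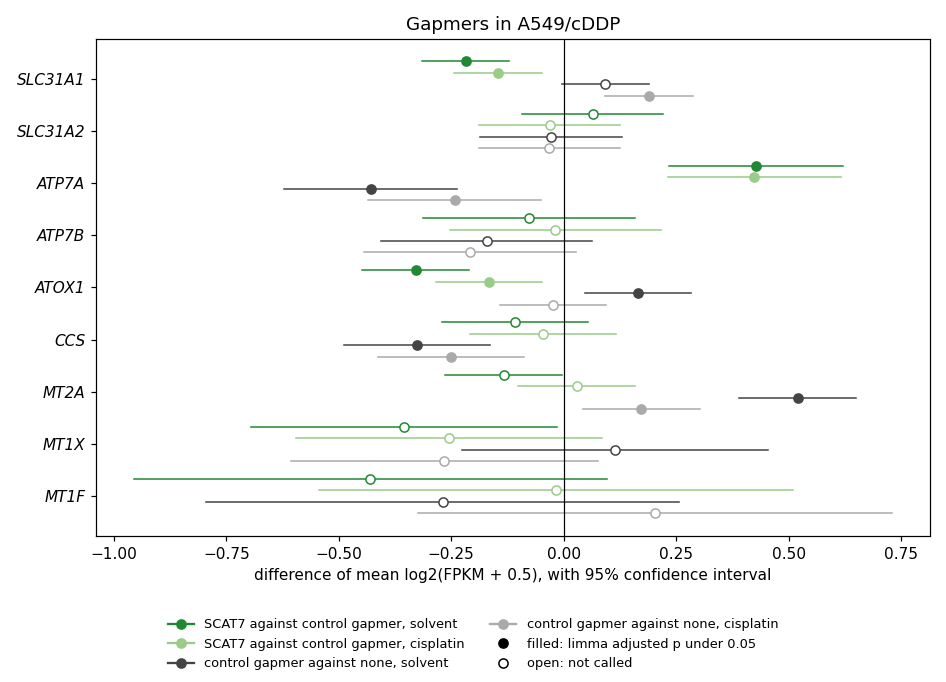
Difference in mean log2(FPKM + 0.5) for the 9 members tested in A549/cDDP, with 95% confidence intervals, between the SCAT7 and the control gapmer and between the control gapmer and no transfection, each in solvent and in cisplatin; filled points passed at an adjusted p under 0.05. ATP7A is raised by the SCAT7 gapmer (0.43 and 0.42) and lower with the control gapmer than without transfection (-0.43 and -0.24), and MT2A is highest above the untransfected cells in solvent (0.52).

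The SCAT7 gapmer comparisons use the control gapmer libraries, which the comparison of control gapmer with no transfection also uses. ATP7A had opposite called signs in them in both conditions. ATOX1 had them in solvent (-0.33 and 0.16) and SLC31A1 in cisplatin (-0.15 and 0.19). These opposite signs share the control gapmer libraries. The depth of the libraries also differed, with the SCAT7 gapmer libraries at 31352667 to 33402864 fragments and the control gapmer libraries at 42300120 to 43141017, and the part of depth was not tested.

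In the other lists, whose counts stand beside 33.2% of all genes higher and 22.7% lower and are not read as apart from them, genes passed in both directions. The pseudogene MT1XP1 rose with the SCAT7 gapmer in solvent, from 0.249 and 0.374 FPKM to 3.60 and 2.25, on 2 and 3 against 21 and 14 fragments (limma adjusted p = 2.69e-05). Of its 50-base words, 27.7% also occur in another gene, so its reads may be shared. Of 10 copper enzyme genes 3 rose and 4 fell: the neighbouring amine oxidase genes AOC3 and AOC2 rose by 2.68 and 1.65, AOC3 from 2.73 and 2.78 FPKM to 21.7 and 19.0, while LOX fell by 0.64 and LOXL2 by 0.36. The organic cation exporter gene SLC47A1, of the list of platinum carriers, fell by 0.79.

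The metal-sensing factor gene MTF1 rose by 0.67, from 5.61 and 5.48 FPKM to 9.22 and 9.07, and SLC30A1 rose by 0.49, among 9 genes of which 3 rose and 1, MTF2, fell (by 0.27). Of 11 zinc import genes SLC39A9 and SLC39A8 rose by 0.21 and 0.20, and 5 fell, SLC39A3 by 0.53 and SLC39A11 by 0.21. Of 10 genes for trafficking and regulation of the copper ATPases 4 rose and 2 fell, with GLRX and DCTN4 up by 0.92 and 0.48 and COMMD1 and CCDC22 down by 0.53 and 0.34. Of 12 genes for mitochondrial copper delivery 3 rose and 3 fell, with COX19 and SCO2 up by 0.66 and 0.44 and CMC2 and SLC25A3 down by 0.51 and 0.40. Of 4 metalloreductase genes STEAP2 rose by 0.68 and STEAP3 fell by 0.38. The calls of SLC39A8, SLC39A9 and SLC39A11 ended under at least 1 alternative.

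Across the 8 groups each member kept its own order of levels. SLC31A1 was highest in A549 in solvent and the other groups lay between 22.2 and 26.6 FPKM, where neighbours mostly overlapped. ATP7A was highest in A549 in cisplatin and lowest with the control gapmer, and its 2 A549 groups stood above all 6 A549/cDDP groups. MT2A and ATOX1 had the reverse order, with both A549 groups below all 6 A549/cDDP groups, and so had ATP7B, whose 2 A549 groups overlapped each other. MT1X and MT1F had few neighbouring groups that were apart.

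Only CCS and MT2A met both limits for a search of like patterns. These were a mean of at least 5 FPKM and a range of group means of at least 1 on the log2 scale. SLC31A2, ATP7A and MT1F met the limit on the range but missed that on the mean. Among 3867 other genes within these limits, the group means of CCS were most like those of KLHDC8B, LZTS2 and CLTB, with Pearson r of 0.994, 0.992 and 0.991 over the 8 groups. Those of MT2A were most like BST2, PDGFB and CHROMR, at 0.988, 0.987 and 0.984. These are descriptions over 8 points that share libraries, with no test.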

How the data were processed

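RNA-seq libraries of 16 samples were made from oligo(dT)-selected RNA, per the labels' protocols. The deposited table holds FPKM per Ensembl identifier, which the authors made with TopHat2, HTSeq 0.6.1 on hg38 according to the submitters' processing notes. Which annotation release was used, the strand setting and the step from counts to FPKM were not given in the sources used here. Symbols came from a gene name table and gene models from GENCODE 29.

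FPKM values were tested as log2(FPKM + 0.5) with limma 3.58.1 in R 4.3.3, in 1 fit of 8 groups of 2 with a mean-variance trend and 8 residual degrees of freedom. Genes averaging at least 0.5 FPKM entered, 17198 in all, and Benjamini-Hochberg adjustment covered all of them at a threshold of 0.05. Fold changes on this scale understate those of low genes. Fragments per gene were estimated from the FPKM steps of low genes. At a tolerance of 0.02 fragments, 67.3% to 73% of low values came out whole, too few for a count test. On simulated data, the test recovered 74% of genes changed by 0.5 and 92% of those changed by 1 on the log2 scale in the comparison of cisplatin in A549, and 4% of its calls were false. For the SCAT7 against the control gapmer in solvent it recovered 82% and 99%, and 8.6% of its calls were false, above the 5% that the threshold aims at. The simulation changed only a small share of the genes and gave genes of like level the same spread. In the data 60.4% and 55.8% of genes passed in these comparisons, so the simulated rates may not hold for them.

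The members and lists were chosen with earlier results of these data known. Besides the 10 members, each list gave up to 2 called genes that rose most and 2 that fell most, and 1 such gene is not reported here. Alternatives were median ratio scaling, quantile normalization, pseudocounts of 0.1 and 1, no filter, a mean of at least 2 FPKM, a replicate block, only the libraries compared, and leaving out each library.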

Additional observations from a re-analysis of the deposited data

Results flagged for a closer look

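The cisplatin effect differed between A549/cDDP and A549 for 5 members, by limma's test of the difference itself over all genes. On the log2 scale the effect in A549/cDDP minus that in A549 was -1.30 for SLC31A2, -0.93 for CCS, -0.57 for ATP7A, 0.23 for SLC31A1 and 0.72 for MT1X. The first 4 calls held under every alternative run, while that of MT1X ended without any 1 of 3 libraries. A difference of this kind passed for 47% of all genes.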

How the results depend on the processing

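Of 39 called member values, 24 kept their call under every alternative run and 15 lost it under at least 1. Uncalled values were followed in full only for cisplatin in A549 and in A549/cDDP, and elsewhere only where near the threshold. Among those followed, these turned sign. With median ratio scaling, the cisplatin change in A549 was -0.0212 for ATP7B and -0.0172 for MT2A, and CCS differed by -0.0376 between the lines in solvent. With quantile normalization the ATP7B value was -0.1111 with cisplatin in A549. Leaving out 1 library gave -0.0487 to 0.1332 for ATP7B and -0.0043 to 0.1312 for MT2A in A549, and -0.1197 to 0.0376 for ATP7B in A549/cDDP.

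The number of members called moved from 2 to 0 without the filter and to 1 with only the libraries compared for cisplatin in A549/cDDP. For the SCAT7 gapmer in solvent it moved from 3 to 5 with either other scaling. Median ratio scaling gave 1 higher and 4 lower, and quantile normalization 0 higher and 5 lower. For that gapmer in cisplatin the number moved from 3 to 1 with only the libraries compared. For the control gapmer against no transfection in cisplatin it moved from 4 to 1 without the filter. Without 1 library these counts ran from 0 to 1 for cisplatin in A549/cDDP, from 0 to 1 for cisplatin with the SCAT7 gapmer, from 1 to 3 for the SCAT7 gapmer in cisplatin and from 1 to 2 for the control gapmer against no transfection in cisplatin. The cause was not tested, beyond the fewer samples or other genes that a setting fits.

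Over all genes, cisplatin in A549/cDDP called 1393 genes, 417 with only the libraries compared and 509 to 1049 without 1 library. With the control gapmer it called 435, 270 and 137 to 179, and with the SCAT7 gapmer 719, 0 and 9 to 1626. The difference between the gapmers' cisplatin effects called 160, 10 and 45 to 462, and 262 without the filter. The share of calls that were higher moved with median ratio scaling and quantile normalization from 60.8% to 47.4% and 49.3% for the lines in solvent, from 66.2% to 53.8% and 59% for cisplatin with the control gapmer, from 69.8% to 61.1% and 59.4% with the SCAT7 gapmer, from 59.4% to 49.2% and 49.9% for the SCAT7 gapmer in solvent, and from 54.3% to 48.6% and 43.9% for the control gapmer against no transfection in cisplatin. Smaller moves crossed 50% for cisplatin in A549 (55.1% to 47.6% and 47.7%) and the difference between the lines' cisplatin effects (45.6% to 54.7% and 53.5%), with median ratio scaling alone for the lines in cisplatin (55.6% to 47.5%) and the SCAT7 gapmer in cisplatin (57.5% to 49.7%), and with quantile normalization alone for the control gapmer against no transfection in solvent (52.2% to 45.8%).

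Same-numbered replicates did not deviate together (correlations -0.187 to 0.119 over 28 pairs of groups), so the numbers were not taken to pair samples. With the replicate block, MT1X in cisplatin in A549/cDDP came to an adjusted p of 0.0526 and ATP7A between control gapmer and no transfection in cisplatin to 0.0535, while MT1F passed for cisplatin in A549/cDDP (0.0351) and between the lines in cisplatin (0.0258). Depth limits MT1X, MT1F and MT1E most.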

Other observations

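The pseudogene MT1L was listed at 0 in every untransfected library and in both control gapmer libraries in solvent. It stood at 0.0961 and 0.193 FPKM with the control gapmer in cisplatin, at 0.651 and 0.367 with the SCAT7 gapmer in solvent, and at 0.493 and 0.124 with that gapmer in cisplatin, on 2 to 8 fragments per library. AOC3 was also high with the SCAT7 gapmer in cisplatin, at 17.3 and 14.7 FPKM against 2.49 and 2.95 with the control gapmer.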
